A study of Mus musculus with 12 samples.

Results

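Of the 6 ileal libraries among the 12 of the study, 2 were grouped by their own measured level of Acta2, the smooth muscle actin. These were control replicate 3 and Slc39a8-IEC KO replicate 1, 1 of each genotype, and they held Acta2 below 50 CPM, counts scaled to a common column total. They are called the low-muscle libraries below, and control replicates 1 and 2 with KO replicates 2 and 3 are called the usual-muscle libraries. All mice were 8-week-old males on the C57BL/6J background, with 3 per genotype and tissue, and RNA came from ileal or colonic mucosa. KO mice carried Slc39a8 fl/fl and Villin-Cre, whose promoter is active in intestinal epithelial cells, so cells of other layers keep the gene. The sample labels give the controls as Slc39a8 fl/fl, whereas the methods of the study name floxed mice, wild-type mice and carriers of Villin-Cre alone as its controls. The groups below are therefore defined by a measured value and not by a treatment, and the differences between them are given as descriptions, with no test.

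The wall of the small intestine is built in layers. The mucosa holds the epithelium, with absorptive villi and proliferating crypts, on a lamina propria of fibroblasts, capillaries and immune cells, and a thin muscle sheet closes it off. Below lie the submucosa, the thick muscularis externa with its enteric neurons, glia and interstitial cells of Cajal, and the serosa with its mesothelium and attached fat. Lymphoid follicles rich in B cells, gathered in Peyer's patches, sit within the ileal wall. A bulk library pools the RNA of every cell in the piece taken, so fewer cells of a type and less RNA per cell cannot be told apart.

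The rule left a wide gap. As CPM of the column total, Acta2 was at 7.24 in control replicate 3 and 4.90 in KO replicate 1, and the next library above the threshold, KO replicate 3, was at 354. Replacing Acta2 by Myh11 or Des, or the threshold of 50 by 20 or 200, divided the libraries in the same way. Total expected counts were 16749138 and 23198023 in the low-muscle libraries and 18122195 to 27903083 in the others, and genes with at least 1 count numbered 20040 and 20688 against 21151 to 21762. The 10 most abundant genes took 7.64% and 7.84% of counts in the low-muscle libraries and 10.7% to 15.5% in the others, while mitochondrial transcripts took 4.25% and 4.95% against 4.78% to 8.25%. Another library stood apart in other genes. KO replicate 2 held 2391 CPM of Car1 and 61.2 CPM of Aqp8, both abundant in colonic epithelium, where the next highest ileal library had 131.7 CPM of Car1 and the other usual-muscle libraries no count of Aqp8. Without this library, no median of the lists below moved by more than 0.365 on the log2 scale, except that of the colon list, which moved by 4.58. Slc39a8, the targeted gene, was at 7.69, 4.76 and 6.12 CPM in control replicates 1 to 3 and at 4.03, 2.38 and 2.53 CPM in KO replicates 1 to 3, so every KO library lay below every control library.

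In the remainder, CPM is scaled by TMM factors over the 6 ileal libraries, and a log2 difference is the fitted value of low-muscle minus usual-muscle libraries with genotype as a second term and its standard error (SE). A gene is called apart when this difference was at least 2-fold and both low-muscle libraries lay on the same side of all 4 others. Of 16921 genes tested, 2259 (13.4%) were apart and lower in the low-muscle libraries and 968 (5.72%) were apart and higher. The counts of each list below are to be set beside these shares. Whatever the fold, 4335 genes lay lower and 4220 higher without overlap, together 50.6% of those tested. Lack of overlap alone therefore does not mark a gene out. The filter asks for about 10 counts in at least 1 library. A gene that reached it in 1 class only had to be higher there. On the usual-muscle side this was so for 10 of 16 genes of enteric neurons, 5 of 7 of glia and 9 of 15 of stromal signals. It was also so there for 4 of 5 of adipocytes, 2 of 5 of mesothelium and some genes of further lists. On the low-muscle side it was so for 6 of 15 genes of B cells and 2 of 5 of germinal centres. It also held there for 1 of 5 of M cells, 1 of 5 of tuft cells, 1 of 15 of enterocytes and the 1 pancreatic gene tested. The counts of these lists are descriptions. At an edgeR adjusted p under 0.1, which here describes the contrast that the rule used, 3234 genes (19.1%) were lower and 2805 (16.6%) higher. The balance of these calls turned with the scaling, to 2483 lower and 4350 higher with library size alone and to 2538 lower and 3256 higher with scaling to the pan-epithelial genes described below. Lower genes made up 70.0% of those apart. This share depended on the scaling and was 57.7% with library size alone, where the median of all genes moved from −0.01 to 0.17 and 1967 genes were apart and lower and 1440 apart and higher. In a principal component analysis of log2 CPM, component 1 took up 66.7% of the variance and placed the low-muscle libraries at 91.2 and 94.8 and the others between −55.6 and −35.5. The genes were grouped by 35 lists of cell type markers and pathways, and a member outside the naming rule was named after its values were seen.

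The 6 marker genes used below, all protein coding, lie on GRCm38 at chr19:34241090-34255590 (Acta2, minus strand), chr16:14194535-14291372 (Myh11, minus strand), chr1:75360329-75368579 (Des, plus strand), chr19:11249675-11266241 (Ms4a1, minus strand), chr14:79984081-80023139 (Olfm4, plus strand) and chr6:78466269-78468872 (Reg3g, minus strand).

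**Figure D1:**
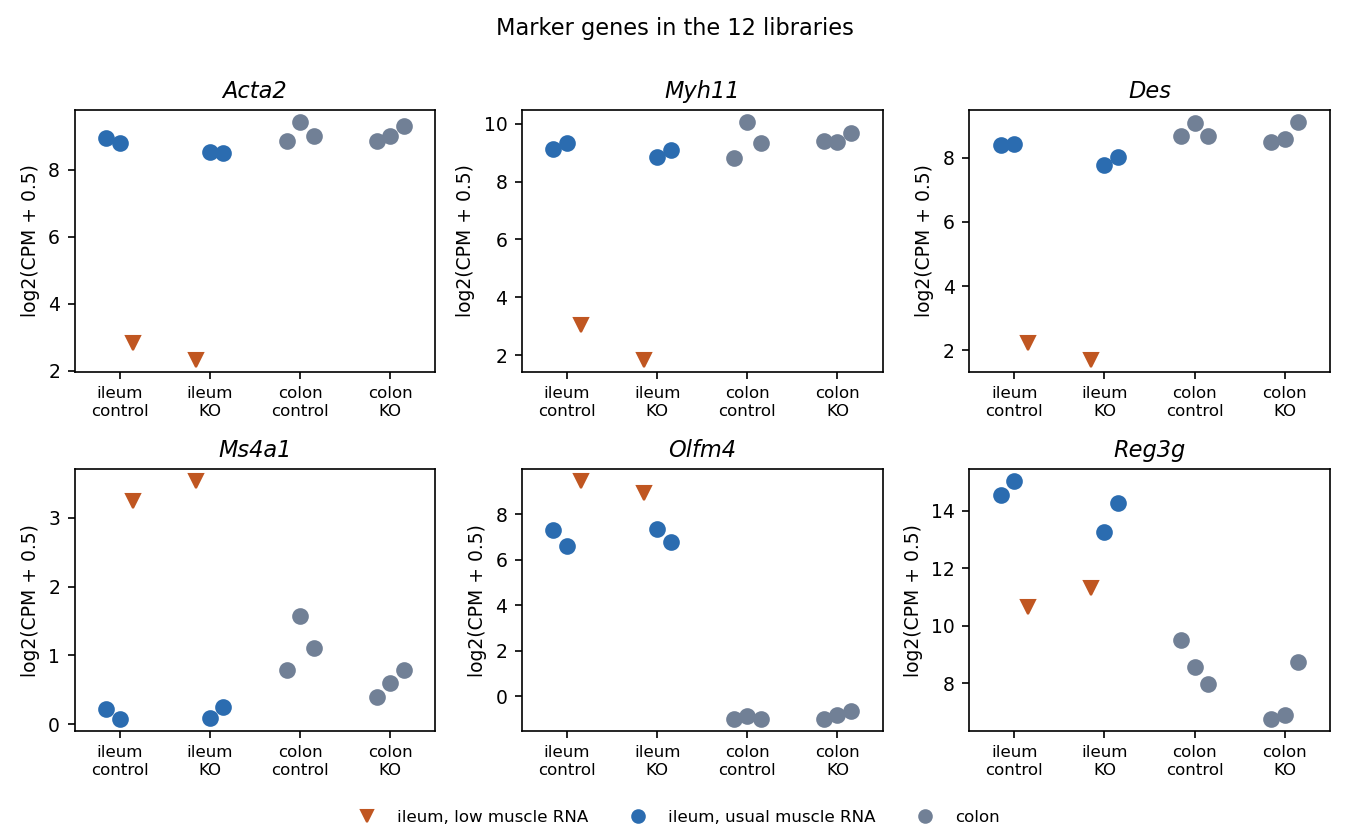
Level of 6 marker genes as log2(CPM + 0.5) in each of the 12 libraries, 1 panel per gene and 1 point per library, ordered by replicate within tissue and genotype, with ileum and colon scaled separately. The 2 low-muscle libraries (triangles) lie below every other ileal library in Acta2, Myh11, Des and Reg3g and above every one in Ms4a1 and Olfm4.

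All 20 smooth muscle genes were apart and lower, with a median of 1.36% of the usual level. The rule chose the libraries by 1 of them, so this count is a description of the choice. Acta2 was at 493, 446, 367 and 361 CPM in the usual-muscle libraries, and 6.64 CPM in control replicate 3 and 4.53 CPM in KO replicate 1 remained (log2 −6.23, SE 0.19). Myh11, the smooth muscle myosin heavy chain, was at 456 to 636 CPM in the usual-muscle libraries and at 7.70 and 3.09 CPM in the low-muscle ones, and Des, which encodes the intermediate filament desmin, was at 219 to 342 CPM against 4.23 and 2.76 CPM. In both genes the low-muscle libraries lay far below the others, and control replicate 3 kept more than KO replicate 1. Myocd, the coactivator that drives the contractile program, was at 1.10 to 1.85 CPM in the usual-muscle libraries and rested on 2 counts and 1 count in the low-muscle ones.

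Not every gene of the contractile apparatus was reduced to the same share. Tpm1, a tropomyosin that epithelial cells also express, stayed at 38.5% of the usual level, with 256 and 259 CPM against 622 to 761 CPM (log2 −1.38, SE 0.15). Mylk, the myosin light chain kinase, stayed at 32.7%, with 125 and 149 CPM against 377 to 439 CPM. Smtn, Csrp1 and Hspb6 stayed at 15.6%, 12.5% and 11.1%, and the other 15 members at 4.43% or less. In colon, where levels were scaled separately, the summed CPM of the 20 genes was 5017 to 7484, against 462 and 469 in the low-muscle and 3555 to 4929 in the usual-muscle ileal libraries, so no colonic library resembled the low-muscle ones.

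The start regions of Acta2 and of Myl9, a myosin regulatory light chain gene at 1.17% of the usual level, are shown because both hold the CArG box, the element bound by serum response factor in contractile genes. They are the 250 bases before the RefSeq transcript start on GRCm38.p6, at chr19:34255374-34255623 on the minus strand and chr2:156775214-156775463 on the plus strand. GENCODE M21 begins Acta2 upstream of this start, so the window lies partly within its gene. Capitals mark CArG boxes with at most 1 G or C in the core, read on both strands.
Acta2: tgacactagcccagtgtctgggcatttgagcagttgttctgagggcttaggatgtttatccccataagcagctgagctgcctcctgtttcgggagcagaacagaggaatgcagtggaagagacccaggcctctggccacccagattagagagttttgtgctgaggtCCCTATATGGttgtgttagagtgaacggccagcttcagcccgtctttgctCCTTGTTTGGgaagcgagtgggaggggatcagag
Myl9: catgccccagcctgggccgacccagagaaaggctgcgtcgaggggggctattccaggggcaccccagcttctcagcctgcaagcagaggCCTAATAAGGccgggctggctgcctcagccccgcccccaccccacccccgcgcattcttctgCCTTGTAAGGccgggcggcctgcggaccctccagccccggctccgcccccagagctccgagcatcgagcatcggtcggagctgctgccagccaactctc
The boxes begin 84 and 34 bases before the start of Acta2 and 161 and 99 bases before that of Myl9. Such a box occurred in 4 of 19 promoters found for 16 of the 20 smooth muscle genes and in 8.59% of all 32851 promoters, and a box without mismatch in 1 of the 19 and in 1.47% of all. A match describes these letters only, and no binding was measured.

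The other cells of the muscle layer were lower too. Of 16 genes of enteric neurons, 14 were apart and lower, with a median of 8.70% of the usual level. Vip, a relaxing neuropeptide, was at 0.158 and 0.221 CPM in the low-muscle libraries and 5.50 to 10.1 CPM in the others, and Hand2, a transcription factor of enteric neurons and gut mesenchyme, at 0.0395 and 0.276 CPM against 6.14 to 8.80 CPM. Tac1, the substance P precursor, was at 6.40 and 5.30 CPM against 16.4 to 138 CPM, with the highest value in control replicate 2. The exceptions were Chat, the acetylcholine-synthesizing enzyme, at 77.0% of the usual level, and Ret, a receptor of neuron precursors, which overlapped with 4.70 and 6.30 CPM against 4.69 to 6.47 CPM (log2 0.00, SE 0.24).

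Enteric glia and interstitial cells of Cajal held exceptions as well, and which cells gave the RNA of these genes was not tested. Of 7 glial genes, 5 were apart and lower, among them S100b, a calcium-binding protein gene, at 0.119 and 0.166 CPM against 0.859 to 1.22 CPM, and Sox10, the glial transcription factor, on 2 counts and no count in the low-muscle libraries. Foxd3, a neural crest factor, had 0 counts in both, against 0.107 to 0.658 CPM in the others. Erbb3, a neuregulin receptor that epithelium expresses strongly, overlapped at 385 and 566 CPM against 278 to 434 CPM, and Gfra3 was apart and higher at 1.26 and 1.21 CPM against 0.305 to 0.945 CPM. Of 4 genes of interstitial cells, Ano1, their pacemaker chloride channel, was at 1.98 and 2.04 CPM against 7.94 to 16.3 CPM, and Etv1 and Thbs4 were apart and lower as well. Kit, which mast cells and other cells share, was instead at 21.4 and 18.6 CPM against 10.35 to 11.97 CPM (log2 0.85, SE 0.16), with no overlap but less than a 2-fold difference.

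Fibroblast and matrix genes kept more of their level than muscle genes. Of 14, 13 were apart and lower, with a median of 14.6% of the usual level. Col3a1, a fibrillar collagen gene, was at 17.8 and 16.2 CPM against 99.3 to 151 CPM (log2 −2.78, SE 0.20), and Sparc, a matrix-binding protein gene, at 9.05 and 8.28 CPM against 61.8 to 126 CPM. Dcn, which encodes the proteoglycan decorin, was at 6.84 and 6.63 CPM against 85.3 to 240 CPM, or 4.90% of the usual level. The collagen VI genes Col6a1, Col6a2 and Col6a3 stayed at 21.9%, 26.4% and 33.1%. Mfap5, a microfibril protein gene, had 0 counts in both low-muscle libraries and 0.902 to 1.71 CPM in the others. Fbln1, a matrix glycoprotein gene, was the member that was not apart, at 22.8 and 40.3 CPM against 15.8 to 20.6 CPM.

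Most genes of stromal signals that regulate the crypt were lower. Of 15, 13 were apart and lower, with a median of 11.2% of the usual level. Grem1, a BMP antagonist made by muscle and fibroblasts below the crypts, was at 0.672 and 0.607 CPM against 38.1 to 68.1 CPM (log2 −6.28, SE 0.26). The R-spondin genes, whose products amplify WNT signals in stem cells, followed. Rspo1 had 0 counts in both low-muscle libraries against 2.23 to 8.18 CPM, Rspo2 had 0 counts against 0.0429 to 0.810 CPM, and Rspo3 was at 0.277 and 0.331 CPM against 2.31 to 3.19 CPM. Wnt5a, a WNT ligand gene of the mesenchyme, was at 1.70 and 2.26 CPM against 7.75 to 18.8 CPM. Bmp3, a BMP family ligand gene that was not apart, was at 82.5 and 68.5 CPM against 34.3 to 49.6 CPM, and Foxl1, a marker of telocytes under the epithelium, was at 64.7% of the usual level on 10 and 4 counts.

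Genes of the serosa and its fat were close to 0 in the low-muscle libraries. All 5 mesothelial genes were apart and lower. Upk3b was at 0.751 and 0.663 CPM against 16.5 to 63.6 CPM, and Msln, the gene of mesothelin, at 0.198 and 0.718 CPM against 6.63 to 25.0 CPM. Upk1b kept 31.5% of its usual level. All 5 adipocyte genes were apart and lower as well. Cfd, which encodes adipsin, was at 0.474 and 0.552 CPM against 8.36 to 23.9 CPM, Retn, the gene of resistin, rested on no count and 1 count, and Adipoq, the gene of adiponectin, had 0 counts against 2.08 to 6.35 CPM. Control replicate 1 was the highest of the usual-muscle libraries in Upk3b, Msln, Cfd and Adipoq. Of 5 pancreatic acinar genes 1 passed the filter, and only through the low-muscle libraries. It was Pnliprp1, at 1.86 and 1.10 CPM against 0.203 to 0.426 CPM.

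Vessels and blood did not share this pattern. Of 12 endothelial genes, 1 was apart and lower and 3 apart and higher, against 13.4% and 5.72% of all genes tested. The median of the 12 was 116% of the usual level. Pecam1, a junction protein gene of all endothelium, overlapped at 5.10 and 4.25 CPM against 2.14 to 4.71 CPM. Plvap, a gene of fenestrated capillaries, was at 11.3 and 7.68 CPM against 1.53 to 3.75 CPM (log2 1.81, SE 0.33), and Kdr and Prox1 were apart and higher. Ccl21a, a chemokine gene of lymphatic endothelium and lymphoid stroma, was lower, at 4.07 and 2.54 CPM against 8.89 to 18.4 CPM, while Lyve1, a lymphatic receptor gene, was at 78.8% of its usual level. The 5 genes of red blood cells overlapped, with the beta-globin gene Hbb-bs at 39.3 and 9.22 CPM against 12.8 to 31.2 CPM, and reads of the near-identical globin genes could have been divided between copies.

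**Figure D2:**
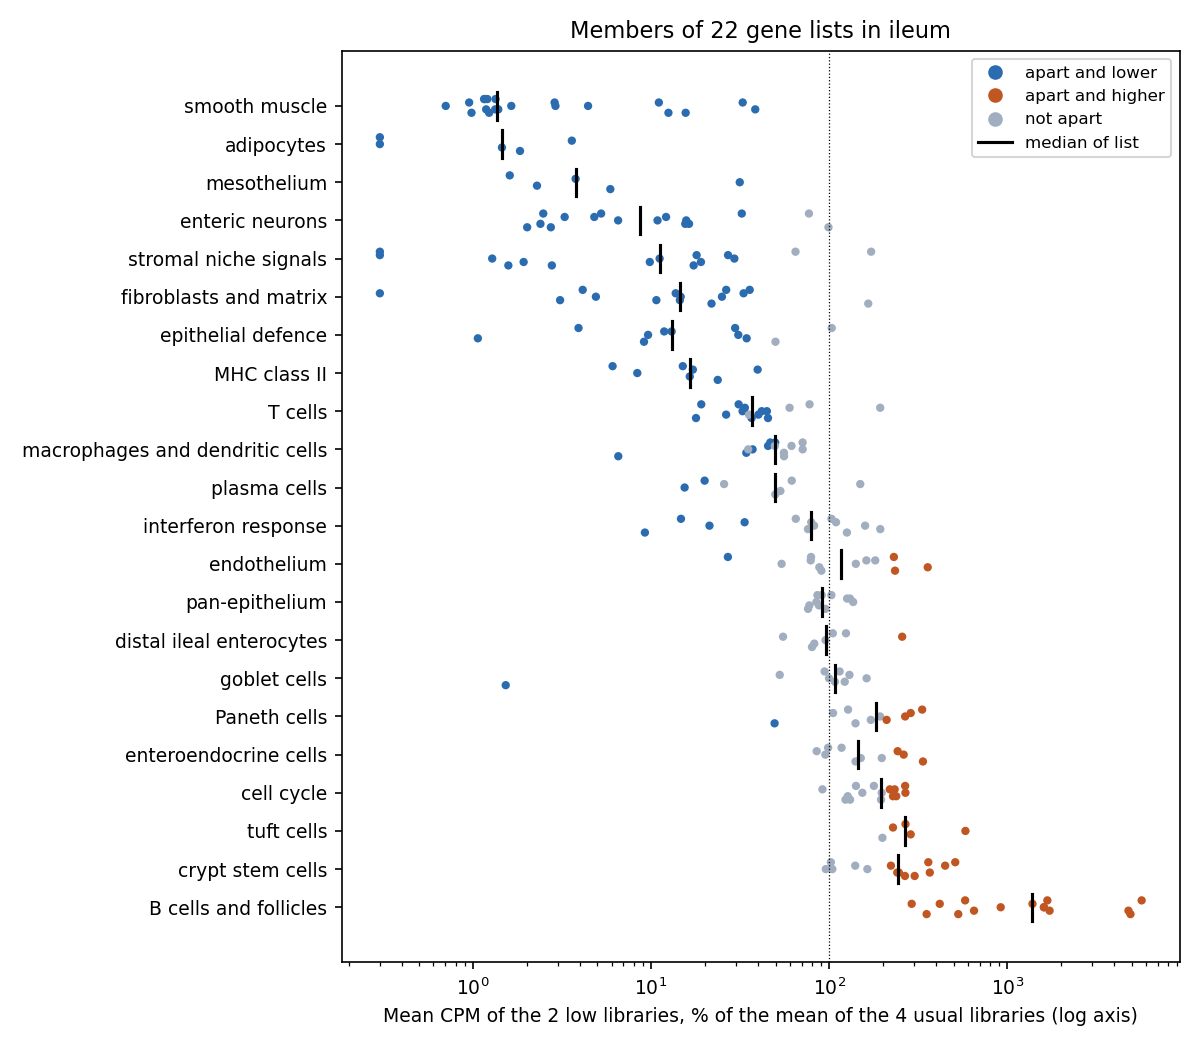
Mean CPM of the 2 low-muscle libraries as a percentage of the mean of the 4 usual-muscle libraries, on a log axis, for the tested members of 22 lists (1 point per gene, bar at the median, members with 0 counts in both low-muscle libraries drawn at the left edge). List medians run from 1.36% for smooth muscle to 1386% for B cells and follicles, with pan-epithelial genes at 90.9%.

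Immune genes went in different directions. The 15 genes of B cells and follicles that passed the filter were apart and higher in the low-muscle libraries. Of these, 6 (Cr2, Fcer2a, Fcmr, Pax5, Blk and Cxcr5) reached the filter's level in the low-muscle libraries only and so had to be higher there. Ms4a1, the gene of the B cell surface protein CD20, was at 8.93 and 11.04 CPM against 0.557 to 0.687 CPM (log2 4.01, SE 0.24). Cr2, a complement receptor gene of B cells and follicular dendritic cells, was at 5.45 and 5.85 CPM against 0.0611 to 0.129 CPM. Ighm, the IgM constant region, was at 23.9 and 32.8 CPM against 5.75 to 8.15 CPM, Spib, a B cell and M cell transcription factor gene, at 10.1 and 12.8 CPM against 1.71 to 2.49 CPM, and Cd79a, part of the B cell receptor, at 11.8 and 12.8 CPM against 0.550 to 3.05 CPM. Cxcl13, a chemokine gene of follicular stroma, was at 3.79 and 5.25 CPM against 1.10 to 2.58 CPM. Pax5, the gene of the B cell identity factor, had no count in control replicate 1, 0.0506 to 0.249 CPM in the other usual-muscle libraries and 3.83 and 7.46 CPM in the low-muscle ones.

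Genes of germinal centres and of the epithelium over follicles were in part higher. Of 5 germinal centre genes, 2 reached the filter's level in the low-muscle libraries only and so had to be higher there. Mybl1 and Gcsam were apart and higher, with Mybl1, a transcription factor gene, at 4.46 and 2.98 CPM against 0.405 to 1.22 CPM. Bcl6, the regulator of germinal centre B cells that other cells also express, was at 9.80 and 9.22 CPM against 5.02 to 7.14 CPM. Gp2, a receptor gene of mature M cells, was at 0.869 and 1.16 CPM against 0 to 0.172 CPM. The other M cell genes did not follow it. Ccl20 and Tnfaip2 were apart and lower, but the count was 1 when control replicate 2, KO replicate 1 or KO replicate 2 was left out. It was also 1 with library size alone, with the replicate block and with scaling to the pan-epithelial genes. Marcksl1 was at 69.5% and Ccl9 at 156% of the usual level.

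Plasma cell genes were mixed, and many T cell and macrophage genes were lower. Jchain, which joins secreted immunoglobulins, was at 96.5 and 84.4 CPM against 401 to 735 CPM (log2 −2.67, SE 0.24), whereas the IgA constant region gene Igha overlapped at 247 and 276 CPM against 264 to 1675 CPM, since control replicate 1 was as low as the low-muscle libraries. Of 7 plasma cell genes, 2 were apart and lower, against 13.4% of all genes tested. Txndc5, the gene of a protein-folding enzyme of secretory cells, lay above all others instead, at 268 and 249 CPM against 130 to 197 CPM, less than a 2-fold difference. The count was 5 without KO replicate 1 and with upper-quartile factors, 4 without control replicate 1, and 3 without control replicate 3, without KO replicate 2, with limma-voom, with the replicate block, without the genotype term and in a fit of all 12 libraries. Of 15 T cell genes, 11 were apart and lower, with a median of 36.7% of the usual level. Gzma and Gzmb, granzymes of intraepithelial lymphocytes, were at 24.3 and 35.7 CPM against 128 to 190 CPM and at 8.93 and 16.5 CPM against 44.4 to 88.4 CPM. Cd4 overlapped, and Cd2, which B cells of mice also express, was at 193% of the usual level.

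Of 13 macrophage and dendritic cell genes, 6 were apart and lower and none apart and higher, with a median of 49.5% of the usual level. Lyz2, a lysozyme gene of myeloid cells, was at 35.4 and 36.2 CPM against 66.3 to 99.5 CPM. The complement genes C1qa, C1qb and C1qc stayed at 45.4%, 37.2% and 34.3%, and Cd163, a scavenger receptor gene of resident macrophages in the muscle and submucosa, at 6.55%. Csf1r, the receptor that macrophages need, overlapped at 12.5 and 10.4 CPM against 10.6 to 20.4 CPM. With library size alone as scaling, 3 of the 13 were apart and lower. The 2 mast cell genes tested were not apart.

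All 7 genes of antigen presentation by MHC class II were apart and lower, against 13.4% of all genes tested, with a median of 16.5% of the usual level. These molecules are made by B cells, dendritic cells and macrophages and, in the ileum, also by epithelial cells. H2-Aa, an alpha chain gene, was at 66.5 and 76.04 CPM against 591 to 1129 CPM (log2 −3.56, SE 0.23), and Cd74, the invariant chain gene, at 107 and 184 CPM against 729 to 1414 CPM. H2-DMb1, part of the complex that loads peptides, had the lowest share at 6.08%, with 3.95 and 5.03 CPM against 55.7 to 108 CPM. Ciita, the coactivator that switches these genes on, was at 8.77 and 9.94 CPM against 17.2 to 36.4 CPM. The low-muscle libraries were thus low in MHC class II genes while they were high in B cell genes. KO replicate 3 was the highest library in all 7. Among 13 interferon response genes, Gbp2, Iigp1, Zbp1 and Ido1 were apart and lower, against 13.4% of all genes tested. Zbp1 was at 19.3 and 25.9 CPM against 60.7 to 157 CPM. The other 9 were not apart, among them Ifit1 at 92.6 and 127 CPM against 114 to 149 CPM and Irf7, a master regulator of type I interferons, at 179 and 254 CPM against 180 to 239 CPM.

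Most genes of epithelial defence were lower. Of 11 tested, 9 were apart and lower, with a median of 13.1% of the usual level. Reg3b, an antimicrobial lectin gene, was at 4153 and 6169 CPM against 25210 to 59310 CPM (log2 −3.01, SE 0.45). Reg3g, its neighbour on chromosome 6, was at 1620 and 2540 CPM against 9722 to 33280 CPM (log2 −3.26, SE 0.51). Reads of these similar genes could have been divided between them. Saa1, a serum amyloid gene that epithelium expresses in response to attached microbes, was at 4.43 and 17.2 CPM against 398 to 2039 CPM, or 1.07% of the usual level. Duox2 and Duoxa2, the hydrogen peroxide-producing oxidase of the epithelium and its maturation factor, were at 89.0 and 204 CPM against 323 to 637 CPM and at 18.9 and 54.0 CPM against 150 to 396 CPM. Nos2, the inducible nitric oxide synthase gene, was at 94.2 and 135 CPM against 183 to 602 CPM. Reg3a overlapped at 63.7 and 68.1 CPM against 37.8 to 96.9 CPM, and Pigr, the receptor that carries IgA across the epithelium, was below the others in both low-muscle libraries at 1457 and 1436 CPM against 2138 to 3440 CPM, just under a 2-fold difference (log2 −0.99, SE 0.21). Among the usual-muscle libraries, control replicate 2 was the highest and KO replicate 2 the lowest in Reg3g, Reg3b, Saa1, Nos2, Duox2 and Duoxa2.

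The start regions of 3 MHC class II genes and of both lectin genes are shown to set these groups side by side. They lie at chr17:34152941-34153190 (H2-DMb1, plus strand), chr17:34287824-34288073 (H2-Aa, minus strand), chr17:34305617-34305866 (H2-Eb1, plus strand), chr6:78370635-78370884 (Reg3b, plus strand) and chr6:78468875-78469124 (Reg3g, minus strand), each 250 bases before the RefSeq start on GRCm38.p6. GENCODE M21 begins Reg3b near the upstream end of this window, so most of the window lies within its gene. Capitals mark AACNGATG, letters of the X box read on both strands, and CCAAT or its complement ATTGG, the letters of the Y box, in the MHC genes, and TATAAA, read on the strand of the gene, and TTCNNNGAA, the letters of a STAT site, in the lectin genes.
H2-DMb1: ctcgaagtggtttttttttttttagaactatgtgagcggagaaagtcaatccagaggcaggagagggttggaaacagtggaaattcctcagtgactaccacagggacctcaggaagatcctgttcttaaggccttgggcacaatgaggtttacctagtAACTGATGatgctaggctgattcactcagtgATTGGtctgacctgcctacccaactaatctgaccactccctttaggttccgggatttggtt
H2-Aa: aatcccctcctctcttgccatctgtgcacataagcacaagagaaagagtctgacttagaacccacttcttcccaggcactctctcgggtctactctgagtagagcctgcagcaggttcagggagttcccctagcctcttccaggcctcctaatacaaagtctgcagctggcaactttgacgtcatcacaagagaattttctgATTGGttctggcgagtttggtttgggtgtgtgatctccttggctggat
H2-Eb1: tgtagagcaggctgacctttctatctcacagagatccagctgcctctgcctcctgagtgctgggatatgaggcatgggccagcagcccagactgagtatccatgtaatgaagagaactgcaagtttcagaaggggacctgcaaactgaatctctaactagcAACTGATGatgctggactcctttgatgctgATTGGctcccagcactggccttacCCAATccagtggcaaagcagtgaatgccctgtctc
Reg3b: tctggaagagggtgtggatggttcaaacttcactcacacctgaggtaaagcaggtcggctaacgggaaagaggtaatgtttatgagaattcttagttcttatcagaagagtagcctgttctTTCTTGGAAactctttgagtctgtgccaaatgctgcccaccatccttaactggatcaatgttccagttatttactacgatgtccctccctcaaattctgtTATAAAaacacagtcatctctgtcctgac
Reg3g: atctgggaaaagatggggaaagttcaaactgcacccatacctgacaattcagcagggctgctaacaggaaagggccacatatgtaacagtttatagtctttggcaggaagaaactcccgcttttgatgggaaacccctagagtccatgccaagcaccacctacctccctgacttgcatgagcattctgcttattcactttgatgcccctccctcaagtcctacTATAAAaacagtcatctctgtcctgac
AACNGATG began 92 bases before the start of H2-DMb1 and 89 bases before that of H2-Eb1. It was in 2 of 5 promoters found for 4 of the 7 MHC class II genes and in 1.98% of all promoters. CCAAT or ATTGG was in all 3 shown, in 4 of these 5 and in 33.8% of all promoters. TATAAA began 29 and 27 bases before the starts of Reg3b and Reg3g and was in 4 of 12 promoters of defence genes and 7.59% of all. TTCNNNGAA was in 1 of these 12, that of Reg3b, and in 7.02% of all. None of the marked motifs overlapped.

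The epithelium itself was at a similar level in all 6 libraries. None of 11 pan-epithelial genes was apart, with any scaling tried, and their summed CPM was 18280 and 19200 against 18570 to 22200. Epcam, an adhesion molecule gene of all intestinal epithelium, was at 2491 and 2762 CPM against 2740 to 3359 CPM, Vil1, the gene of villin, at 2373 and 2686 CPM against 2610 to 3103 CPM, and Krt8, a keratin gene, at 6151 and 6281 CPM against 5697 to 7531 CPM. Scaling every library to the summed count of these 11 genes left 2094 genes apart and lower and 1184 apart and higher. Markers of the ileal end of the small intestine had a median of 95.4% of the usual level. Their log2 differences ran from −0.86 to 1.36. Of these 7 genes, 1 was apart and higher, against 5.72% of all genes tested, and 2 lay lower without overlap but less than 2-fold. The bile acid genes Fabp6 and Slc10a2 were at 4134 and 5108 CPM against 3085 to 6444 CPM and at 1750 and 1745 CPM against 1772 to 3012 CPM. Cubn, the receptor for vitamin B12 with intrinsic factor, was apart and higher at 1071 and 999 CPM against 315 to 460 CPM. Genes of the proximal intestine were at or below 4.70 CPM in every ileal library. Of 3 tested genes of the colon list, Car1 was lower, at 3.16 and 4.14 CPM against 12.6 to 2391 CPM.

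Digestive and absorptive genes of enterocytes were similar or slightly higher. Of 15, 3 were apart and higher, against 5.72% of all genes tested. Apoa1, an apolipoprotein gene, was at 6997 and 8139 CPM against 3532 to 5636 CPM, less than 2-fold, and Anpep, a brush border peptidase gene, overlapped at 5998 and 7645 CPM against 5906 to 7177 CPM. The exception was Slc2a2, the gene of the glucose and fructose transporter GLUT2 in the basolateral membrane. It was at 61.9 and 40.2 CPM in the low-muscle libraries, or 1566 and 727 counts, and at 0.672, 0.0506, 0.639 and 0.301 CPM in the others (log2 6.86, SE 0.39), the largest difference on the lists in the upward direction. Lct and Fabp1 were apart and higher at levels under 8 CPM. Without control replicate 3, 6 of the 15 were apart and higher.

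Crypt genes were higher. Of 14 genes of crypt stem cells, 9 were apart and higher and none lower, with a median of 244% of the usual level. Olfm4, a secreted protein gene of stem cells and their first descendants, was at 699 and 485 CPM against 96.2 to 164 CPM (log2 2.15, SE 0.24). Lgr5, the R-spondin receptor of stem cells, was at 19.0 and 15.1 CPM against 3.14 to 5.86 CPM, and Ascl2, a transcription factor of the same cells, at 3.75 and 3.98 CPM against 0.183 to 1.47 CPM. Slc12a2, an ion transporter of crypt cells, was at 301 and 225 CPM against 73.8 to 118 CPM. Smoc2, Tnfrsf19 and Prom1 were at 102%, 104% and 95.8% of the usual level, so the stem cell markers did not move as a block, and Axin2, a target of WNT signals, overlapped at 54.8 and 50.3 CPM against 30.7 to 52.0 CPM.

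Of 15 cell cycle genes, 6 were apart and higher, against 5.72% of all genes tested. Of the 6, 4 were subunits of the MCM helicase that licenses DNA replication. Mcm5 was at 45.2 and 38.6 CPM against 10.8 to 17.9 CPM, and Top2a, the topoisomerase of dividing cells, at 201 and 140 CPM against 64.8 to 91.3 CPM. Mki67, a proliferation marker, was at 217 and 149 CPM against 74.5 to 111 CPM, just under 2-fold. The mitotic genes Ccnb1, Cdk1 and Birc5 overlapped between the groups. Without control replicate 3, 3 of the 15 were apart and higher. Dividing cells of crypts and of follicles both express these genes, and their parts in the count were not tested.

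The secretory cells of the epithelium differed by type. Of 10 Paneth cell genes, 4 were apart and higher. Lyz1, the Paneth lysozyme gene, was at 5913 and 4392 CPM against 1688 to 2234 CPM (log2 1.43, SE 0.21), Itln1 and Ang4 were at 287% and 333% of the usual level, and Defa22 was apart among 5 defensin genes whose near-identical sequences leave their separate levels uncertain. Mptx2, a pentraxin gene of Paneth cells, went the other way, at 64.7 and 56.4 CPM against 111 to 144 CPM, though it was no longer apart without KO replicate 1 or KO replicate 3, and with library size alone or scaling to the pan-epithelial genes. Of 5 tuft cell genes tested, 4 were apart and higher, including Dclk1 at 13.5 and 14.0 CPM against 5.07 to 6.79 CPM. Of 10 enteroendocrine genes, Chga, Chgb and Tph1, genes of serotonin-producing cells, were apart and higher, against 5.72% of all genes tested. Chgb was at 110 and 79.6 CPM against 30.5 to 41.3 CPM, whereas the hormone genes Sct and Pyy were at 95.2% and 85.1%.

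Goblet cell genes were largely at their usual level. Clca1, Zg16 and Fcgbp were at 130%, 108% and 162%, and Muc2, the gene of the main mucin, was at 1556 and 1493 CPM against 1158 to 1355 CPM. Spink4 was at 52.8%. Retnlb, which encodes a secreted protein that goblet cells make on contact with microbes and parasites, was apart and lower at 0.198 and 0 CPM against 2.88 to 9.59 CPM. Among genes that respond quickly to handling or daytime, Fosb, Egr1 and Dusp1 of 12 immediate early and heat shock genes and Per2 and Per3 of 12 clock genes were apart and higher. The share over all genes tested was 5.72%. Fosb was at 6.40 and 7.90 CPM against 0.861 to 1.55 CPM and Per2, a repressor of the clock, at 97.0 and 93.5 CPM against 33.5 to 46.6 CPM, while Fos overlapped at 84.9 and 110 CPM against 77.0 to 116 CPM. The times of collection are not given in the sources used here.

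Outside the lists, the largest downward differences among genes of at least 10 CPM on average were in genes of several kinds, some of them of muscle. Flnc, a muscle filamin gene, was at 0.0395 and 0.110 CPM against 11.9 to 17.9 CPM, Rgs5, a gene of pericytes and muscle, at 3.79 and 2.04 CPM against 166 to 281 CPM, and Jph2, which couples membranes in muscle cells, at 0.356 and 0.166 CPM against 17.7 to 31.5 CPM. Pgm5, Mgp, Gas1, Aebp1, Cd59a, Pcp4 and Slpi were at 0.636% to 2.21% of the usual level, Igkv6-23, an immunoglobulin light chain segment whose usual level ran from 4.58 to 81.5 CPM, at 0.376%, and Plet1, a surface protein gene, at 0.632 and 0.387 CPM against 8.56 to 66.2 CPM. The largest upward differences were in genes of several kinds. Pck1, the gene of a gluconeogenic enzyme, was at 136 and 267 CPM against 10.9 to 49.4 CPM, Pnliprp2, a lipase-related gene, at 127 and 106 CPM against 12.5 to 24.4 CPM, and Lrat, which esterifies vitamin A, at 59.3 and 64.5 CPM against 7.60 to 23.0 CPM. Vwa1, Apol9b, Cyp3a44, Habp2, Pdxk, Ano6, Clca3b, Tppp and Sox4 were at 390% to 727% of the usual level.

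The pattern was then set side by side in the 2 genotypes, whose comparisons share no library. Control replicate 3 against control replicates 1 and 2, and KO replicate 1 against KO replicates 2 and 3, gave log2 differences with a Pearson correlation of 0.719 and a Spearman correlation of 0.718 across the 16921 genes, which are not independent of each other. The signs matched for 78.5% of genes. In control 4469 genes and in KO 3840 genes differed at least 2-fold, of which 2838 did so in both and 147 of those with opposite sign. Of the 2259 genes apart and lower, 1895 were at least 2-fold lower in each genotype, and of the 968 apart and higher, 619 were at least 2-fold higher in each. Being apart already asks the low-muscle library of each genotype to lie on the same side of all usual-muscle libraries. Agreement in these 2 counts is therefore largely set by the definition. Length and base composition of the longest transcript, known for 99.9% of the genes tested, had Spearman correlations with the difference of 0.137 and 0.0441.

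**Figure D3:**
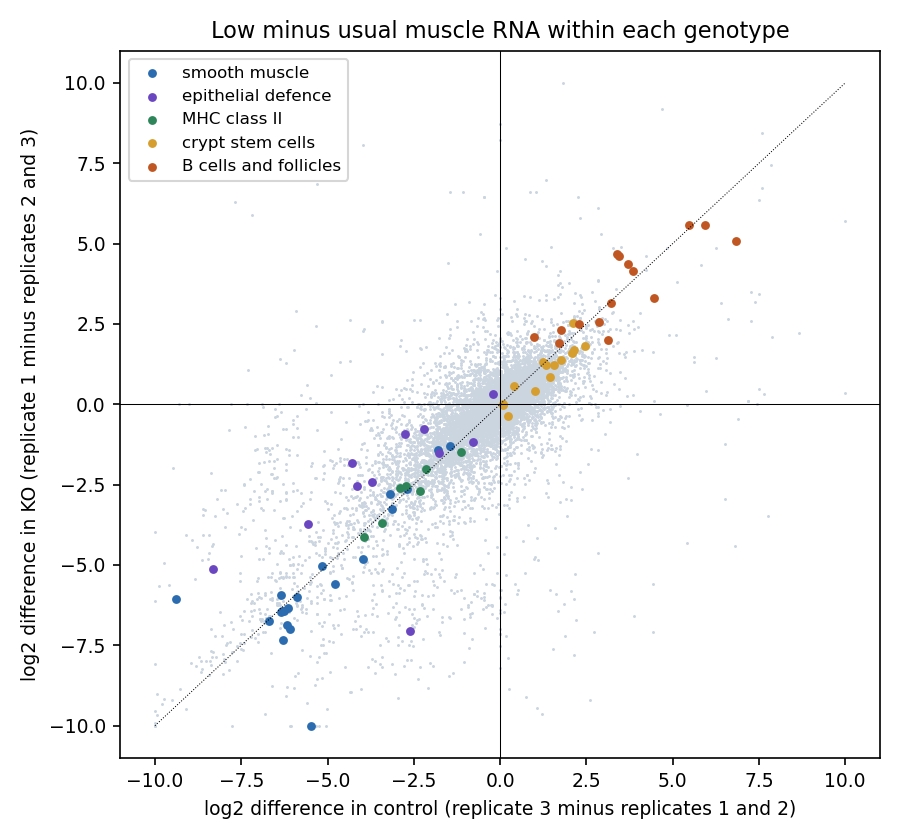
Fitted log2 difference of low-muscle minus usual-muscle libraries in control (x axis) and in KO (y axis) for 16921 genes, grey, with 5 lists in colour, the diagonal dotted and values beyond 10 drawn at 10. Smooth muscle and MHC class II genes lie at the lower left and B cell genes at the upper right, near the diagonal, and most defence genes lie above the diagonal, with larger differences in control than in KO.

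Whether the difference between low-muscle and usual-muscle libraries itself differed between genotypes was tested, since the rule did not choose on it. edgeR called 0 of 16921 genes (0%) at an adjusted p under 0.1, with 383 at an unadjusted p under 0.05 and a smallest adjusted p of 0.204, and limma-voom also called 0. DESeq2 called 9 genes (0.0532%), and edgeR called 18, 78, 1 and 6 genes when control replicate 1, control replicate 2, KO replicate 2 or KO replicate 3 was left out. Among the 9 were Duoxa2 and Duox2, in which control replicate 3 was lower than KO replicate 1, with differences between the genotypes of 2.48 and 1.84 on the log2 scale by DESeq2. Mt1, the gene of a metal-binding metallothionein, was at 154 and 137 CPM in the usual-muscle and 72.5 CPM in the low-muscle control library, and at 654 and 585 CPM in the usual-muscle and 67.8 CPM in the low-muscle KO library (log2 −2.18 by DESeq2). With 1 low-muscle library per genotype, these comparisons take the spread of that library from the others.

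The genotype comparison in ileum was fitted with and without muscle class, since each genotype held 1 low-muscle library of 3. Fitted with genotype alone, edgeR gave 0 calls (0%) with 123 genes (0.727%) at an unadjusted p under 0.05, limma-voom 0 and DESeq2 1 call (0.00591%). With muscle class as a further term, edgeR gave 0 calls (0%) with 611 genes (3.61%) at an unadjusted p under 0.05 and a smallest adjusted p of 0.272. In that fit limma-voom gave 0 and DESeq2 10 calls (0.0591%). With no effect, about 0.05 of genes would pass the unadjusted threshold, so neither share marks an excess. The median standard error of the genotype effect was 0.316 without the term and 0.211 with it, and the common coefficient of variation between libraries was 0.406 and 0.198. For Slc39a8 the effect with the term was −1.08 on the log2 scale (SE 0.27, edgeR adjusted p = 0.971), although all 3 KO libraries lay below all 3 control libraries. The study made its calls with ileum and colon data combined, whereas the fits here used ileum alone.

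**Figure D4:**
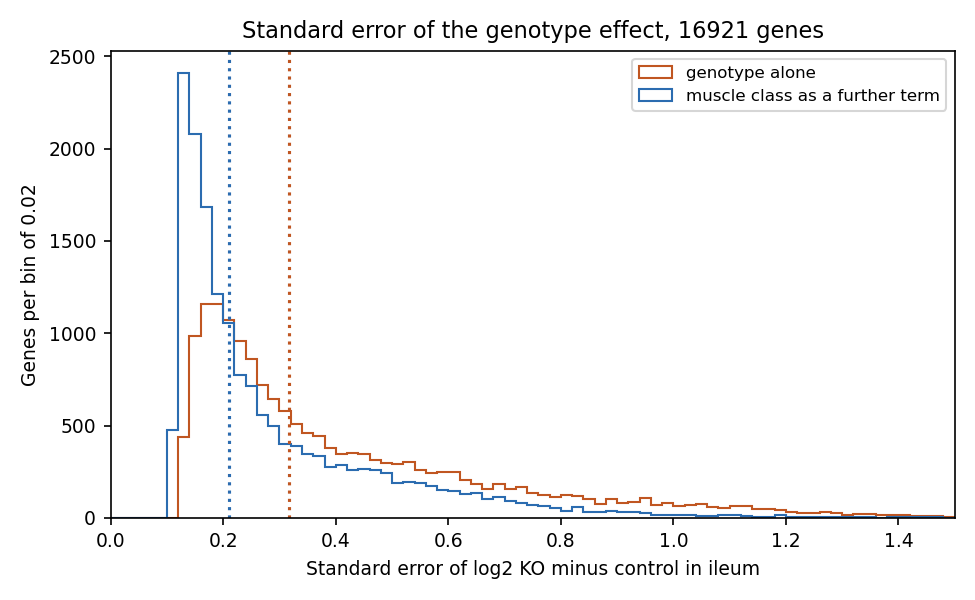
Number of genes by standard error of the log2 genotype effect in ileum, in bins of 0.02, fitted with genotype alone or with muscle class as a further term, dotted lines at the medians. Values above 1.5 are not drawn, and the distribution with the term lies to the left, with a median of 0.211 against 0.316.

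The genes that DESeq2 called with the term were in part of the layers described above. Tagln and Myl9, both of smooth muscle, were lower in KO by 0.66 and 0.77 on the log2 scale. Among usual-muscle libraries Tagln was at 559 and 431 CPM in control and 322 and 320 CPM in KO, and Myl9 at 465 and 382 CPM in control and 279 and 280 CPM in KO. Cyp2u1, a fatty acid hydroxylase gene, was higher in KO in both classes, at 20.3 CPM in the low-muscle and 28.1 and 22.2 CPM in the usual-muscle libraries against 10.98 CPM and 13.9 and 14.4 CPM in control. Aqp8 rested on KO replicate 2 alone. The others were the heat shock gene Hspa1b, the heavy chain segments Ighv1-64, Ighv1-59, Ighv1-55 and Ighv1-15, between which similar sequences could divide reads, and Gm42878, which had no count in any KO library and was the call made without the term. Of the genes that the study called, Slc39a8, Acer1, Ighv1-55 and Entpd4b, none was apart between low-muscle and usual-muscle libraries. Being apart is hard to reach for a gene that differs between genotypes, since all libraries are compared together. In control, the low-muscle library held 0.198 CPM of Ighv1-55 against 1.53 and 2.18 CPM, and in KO 5.96 CPM against 11.5 and 12.1 CPM. Acer1 was at 16.9 CPM against 13.9 and 9.88 CPM in control, and at 18.8 CPM against 35.6 and 29.7 CPM in KO. Entpd4b was at 10.2 CPM against 7.45 and 7.19 CPM in control, and at 13.25 CPM against 12.64 and 14.99 CPM in KO.

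The 6 colonic libraries, which the rule did not use, show how the markers vary where muscle RNA varies little. Acta2 ran from 461 to 681 CPM in them. Across these 6, Myh11 and Des followed Acta2 on the scale of log2(CPM + 0.5), with Pearson r of 0.871 (exact permutation p = 0.0167, adjusted over 4 relations 0.0472) and 0.923 (exact permutation p = 0.0236, adjusted 0.0472). Spearman rho was 0.600 (exact permutation p = 0.242, adjusted 0.322) and 0.886 (exact permutation p = 0.0333, adjusted 0.133). Both relations rest on the extreme libraries, since r was 0.475 and 0.265 without the 2 farthest from the median of Acta2. For Ms4a1, r was 0.712 (exact permutation p = 0.115, adjusted 0.154) and rho 0.714 (exact permutation p = 0.136, adjusted 0.272), and for Reg3g r was 0.297 (exact permutation p = 0.539, adjusted 0.539) and rho 0.371 (exact permutation p = 0.497, adjusted 0.497). Without the same 2 libraries r was 0.507 and −0.312. A fall of Ms4a1 with rising Acta2, as between the ileal groups, was thus not seen in colon, and with 3 libraries per genotype the relation within a genotype could not be tested. Olfm4 was at 0 to 0.136 CPM in colon and was not tested.

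**Figure D5:**
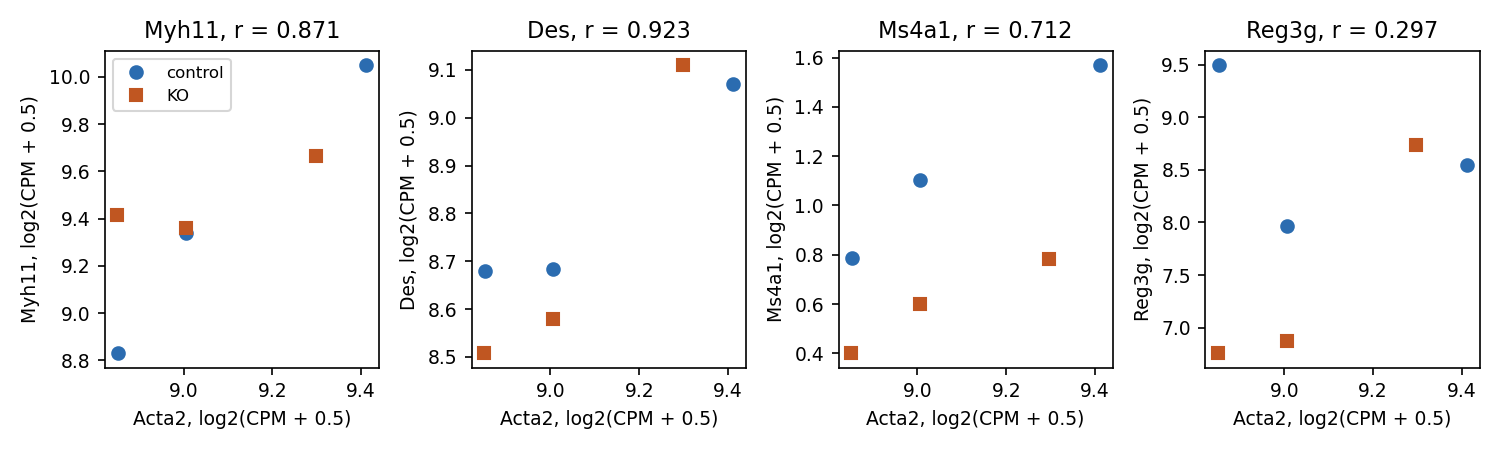
Level of Myh11, Des, Ms4a1 and Reg3g against that of Acta2 in the 6 colonic libraries, all as log2(CPM + 0.5), with circles for control and squares for KO and Pearson r above each panel. Myh11 and Des rise with Acta2, with r of 0.871 and 0.923, and Ms4a1 and Reg3g scatter more widely, with r of 0.712 and 0.297.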

How the data were processed

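Bulk RNA-seq libraries from mucosa of ileum and colon, 3 per genotype and tissue, were analysed. The authors deposited 1 table of expected counts per gene, estimates that need not be whole and are not normalized. The study's methods name STAR for alignment, and the Reporting Summary names FeatureCounts, which gives whole numbers by default, whereas 84.1% of the deposited values above 0 were whole, so how the expected counts were estimated is unclear. The table's 92 spike-in lines held no counts and were left out.

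Groups came from the sample labels, and the muscle classes from Acta2. Expected counts were rounded, filtered with filterByExpr and fitted with edgeR 4.0.16 (R 4.3.3; TMM, glmQLFit, glmQLFTest, Benjamini-Hochberg threshold 0.1). DESeq2 1.42.0, limma-voom (limma 3.58.1), other scalings, filters, thresholds and libraries left out served as alternatives. Replicate libraries were compared by chi-square, which was 41.5 to 235 per degree of freedom, so no pair was counted as 1 sample. Total counts per library limit precision for genes with few counts. Colonic libraries were scaled separately. The fits were tested on simulated data.

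Named genes are the 6 markers, the 3 most abundant tested members of each list, the 12 largest differences in each direction outside the lists with a mean of at least 10 CPM and an established gene name, and calls of a tested comparison numbering at most 10. Others were chosen after their values were seen, and some genes are not reported here. The members and lists were chosen with earlier results of these data known. Promoters are from RefSeq and transcript lengths from GENCODE M21. Plots were made in Python 3.11.15 with matplotlib 3.10.9. P-values of the genotype comparisons measure the spread between libraries, each from a single mouse. Those of the difference between genotypes take the spread of the only low-muscle library of a genotype from the other libraries. Those in colon come from permuted pairings of all colonic libraries.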

Additional observations from a re-analysis of the deposited data

Results flagged for a closer look

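Among the 4 usual-muscle libraries, 1 library lay far from the other 3, by the gap to its neighbour over the whole range, in 9 of 129 named genes (6.98%, where chance gives about 5%). Control replicate 1 was highest in Ano1 at 16.3 CPM (next 9.30), in Sparc at 125.7 CPM (next 68.3), in Msln at 25.0 CPM (next 9.69), in Gas1 at 34.1 CPM (next 16.9) and in Fabp2, a fatty acid-binding protein gene of enterocytes, at 9309 CPM (next 5337). Control replicate 2 was highest in Tac1 at 138.3 CPM (next 30.7). KO replicate 2 was highest in Car1 at 2391 CPM (next 131.7) and in Aqp8 at 61.2 CPM (next 0), and lowest in Anpep at 5906 CPM (next 7084).

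The difference between low-muscle and usual-muscle libraries differed between genotypes by DESeq2's test of the difference itself (adjusted p under 0.1) in 9 genes that edgeR and limma-voom did not call. The log2 difference in KO minus that in control was 2.48 for Duoxa2, 1.84 for Duox2, −2.18 for Mt1, 3.09 for Enpp7, −10.3 for Gm16867, −3.71 for Igkv1-117, −7.57 for Ighv1-82, −10.1 for Gm27177 and 2.27 for Gm29216. Enpp7, the gene of the alkaline sphingomyelinase of the brush border, was at 11.5, 8.76 and 3.60 CPM in control replicates 1 to 3 and at 26.0, 5.15 and 12.2 CPM in KO replicates 1 to 3. Gm29216 was at 2024, 1183 and 138 CPM in control and at 327, 674 and 908 CPM in KO. Gm16867 had no count in control replicates 1 and 2 and 16.4 CPM in control replicate 3, against 39.0, 34.7 and 27.0 CPM in KO, so its fitted value is no measure of size, and the same holds for Gm27177, which had no count in KO replicate 1.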

How the results depend on the processing

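No fitted difference of a named gene called apart was reversed. The balance of calls turned, as given above, and medians of 10 lists changed sign in at least 1 setting: blood in 8, distal ileal enterocytes and genes called by the study in 6, colon, M cells and mast cells in 2, and endothelium, enterocytes, pan-epithelium and pancreatic cells in 1. Of 2447 recomputed differences of 129 named genes in 19 settings, 2301 moved by less than the spread between libraries. With library size alone, 4350 genes were higher at adjusted p under 0.1 in place of 2805. At least 1.5-fold, 2236 were apart and higher, and at least 4-fold, 1271 lower and 183 higher. Leaving out 1 library gave 2267 to 2682 apart and lower and 979 to 1386 apart and higher, but 927 to 3480 lower and 421 to 3089 higher at adjusted p under 0.1. These fell most without control replicate 3 (927 and 421) and without KO replicate 1 (1684 and 1254), where 1 low-muscle library remained and was assumed to vary like the others. Differences between genotypes numbered 9 by DESeq2 and 1 to 78 with a library left out. Genotype calls with the class term numbered 10 by DESeq2 and 0 to 5 with a library left out, and without it 1 by DESeq2 and 0 to 1. Shares of lower genes among those apart were 75.3% with upper-quartile factors and 63.9% with scaling to pan-epithelial genes, which was chosen after seeing the data, as was the older quasi-likelihood method. Calls at adjusted p under 0.1 were lower for 53.6%, but for 36.3% with library size alone. Median differences with members at 0 set to their bound of 3 counts over both libraries were −2.27 for glia, −2.78 for fibroblasts, −2.93 for stromal signals and −5.59 for adipocytes. The 4 relations in colon kept their side of the threshold.

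Whether replicate numbers pair the libraries could not be told. Deviations from genotype means of libraries with the same number correlated at −0.528, 0.385 and −0.673. Muscle class was not removed from these deviations. Replicates 1 and 3 each set a low-muscle against a usual-muscle library, so the signs follow from the classes. With the replicate block, 1685 genes were higher and 2416 lower at adjusted p under 0.1, and 2257 were apart and lower and 1074 apart and higher. Genotype calls by edgeR with the block numbered 101 with the class term and 0 without. With block and class term, 569 genes had an unadjusted p under 0.05 for genotype, against 611 without the block. Block, class and genotype together leave little in 6 libraries to estimate the spread from, so the 101 calls are not read as genotype effects. No paired analysis was possible for the difference between genotypes because each genotype has 1 low-muscle library. Depth limits genes such as Myocd and Sox10.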
